A study of Mus musculus with 24 samples.

Results

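Cardiac bodies, cultures made from mouse embryonic stem (ES) cells and taken at day 14, were compared with whole hearts of newborn mice taken at postnatal day 1 (P1). The arrays were chosen by sample title. They are 8 of the 24 deposited sets of values: 2 cardiac body and 2 P1 heart samples, each given at gene level and at exon level. The series holds 12 RNA samples in 6 groups of 2, and the other 4 groups (ES cells, embryonic bodies at day 7, hearts at E17.5 and adult hearts) entered the fit for its estimate of spread and are cited for their levels. The ES cells were differentiated in a DMEM medium with serum, and RNA of all samples was extracted with TRIzol, depleted of ribosomal RNA, amplified and hybridised to a mouse whole-transcript array. The labels name no ES line, no mouse strain, no sex and no allele or treatment. They do not say whether the 2 samples of a group came from separate cultures or animals, so p-values measure the spread between these samples only, which may be technical.

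A newborn heart is a mixture. Its beating cells, the cardiomyocytes, build sarcomeres from cardiac isoforms of myosin, actin and troponin, cycle calcium through the sarcoplasmic reticulum, and around birth turn from glucose and lactate toward fatty acids as fuel while most of them leave the cell cycle. Endothelium, fibroblasts, epicardium, mural cells and macrophages make up much of the rest. ES cells that are left to differentiate in serum form derivatives of several germ layers side by side, and some cells can remain undifferentiated. In RNA from such mixtures, fewer cells of a type and less RNA per cell cannot be told apart.

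Values are the deposited log2 levels, so a difference of 1 is a 2-fold change. Of 19920 genes tested, 6452 (32.4%) differed between cardiac bodies and P1 hearts at an adjusted p under 0.05 (limma, Benjamini-Hochberg): 3354 (16.8%) were higher and 3098 (15.6%) lower in cardiac bodies. Without cardiac body array 2 the totals were 4260 in all and 1973 lower. For 12078 genes (60.6%) both cardiac body arrays lay on the same side of both P1 arrays, called or not. This held for 6450 of the 6452 called genes, so a lack of overlap adds little to a call. The median difference over all genes tested was -0.043. The shares of 16.8% higher and 15.6% lower are the measure for the list counts that follow. The files used give no measure of background, and no fold is given where a group lay below the median gene-level signal of its arrays (5.63 to 5.70 in these 4). The arrays of a group correlated over genes at r = 0.990 for the cardiac bodies and 0.971 for the P1 hearts. The 2 P1 arrays differed in a directed way: 991 genes were over 1 higher in P1 array 1 than in array 2 and 85 the other way, against 74 and 70 between the cardiac body arrays. Genes of the first kind, named after their values were seen, include the chromosome structure genes Smc2 (P1 6.48 and 3.97), Stag2 (8.51 and 5.85), Nipbl (9.11 and 6.67) and Atrx (9.25 and 6.93). The difference of Nipbl from the cardiac bodies was 0.39 and not called with both P1 arrays, 1.61 without P1 array 1 and -0.82 without P1 array 2.

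Genes of the contractile apparatus were present in the cardiac bodies and mostly lower than in the newborn heart. Of 45 measured sarcomere genes 29 were lower, none was higher and 16 were not called, with a median difference of -0.98. Myh6, the fast cardiac myosin heavy chain, stood at 12.36 and 11.95 in the cardiac bodies and at 13.22 and 12.80 in the P1 hearts, a difference of -0.86 (SE 0.21, adjusted p = 0.00729). Myh7, the slow heavy chain of the fetal mouse ventricle, stood at 9.72 and 9.57 against 12.76 and 12.64, a difference of -3.05 (SE 0.51, adjusted p = 0.000542). The groups did not overlap for either chain, and the fall in Myh7 was 8.29-fold against 1.81-fold for Myh6. The call for Myh6 was lost without cardiac body array 2 (-0.65, adjusted p = 0.0933) and without P1 array 1 (-0.65, adjusted p = 0.0539).

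The light chains did not move alike. The ventricular regulatory chain Myl2 read 12.16 and 11.67 in cardiac bodies and 13.06 and 13.10 in P1 hearts (-1.16, SE 0.20), and the ventricular essential chain Myl3 read 11.47 and 10.89 against 12.67 and 12.97 (-1.64, SE 0.26). Both were called lower. For the atrial essential chain Myl4 the values were 12.67 and 12.12 in cardiac bodies and 11.87 and 12.14 in P1 hearts, and for the atrial regulatory chain Myl7 they were 12.46 and 11.72 against 11.96 and 11.88. Neither atrial chain was called, with differences of 0.39 (SE 1.09) and 0.17 (SE 1.22). The adult arrays, which share the estimate of spread, lay far apart for both genes, at 7.01 and 12.28 for Myl4 and at 5.42 and 11.27 for Myl7.

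Thin filament genes showed the same unevenness. Cardiac actin Actc1 read 13.50 and 13.26 in cardiac bodies and 13.88 in each P1 heart (-0.50, not called), whereas skeletal actin Acta1, which is co-expressed in the fetal heart, read 7.40 and 7.34 against 8.76 and 9.53 (-1.77, adjusted p = 0.00502). Cardiac troponin T, Tnnt2, was 1.57-fold lower (12.87 and 12.61 against 13.49 and 13.30). Its call was lost without cardiac body array 2 (-0.52, adjusted p = 0.163) and without P1 array 1 (-0.55, adjusted p = 0.0857). The mature inhibitory troponin Tnni3 read 9.75 and 8.86 against 11.35 and 11.70, a fall of 2.22 (SE 0.27), and the fetal form Tnni1 read 10.74 and 9.84 against 11.53 and 11.80 (-1.37, or -0.92 with adjusted p = 0.0593 without cardiac body array 2). Both cardiac body arrays lay below both P1 arrays for each troponin.

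Among structural proteins the giant spring titin (Ttn) stood at 9.89 and 9.64 against 12.53 and 11.31 (-2.15, SE 0.32). M-band myomesin 2 (Myom2) stood at 8.61 and 8.52 against 11.50 and 11.27 (-2.82, SE 0.23), the Z-disc calcineurin binder myozenin 2 (Myoz2) at 8.65 and 7.88 against 10.85 and 11.13 (-2.73, SE 0.32), and the intermediate filament desmin (Des) at 9.23 and 8.57 against 11.03 and 11.39 (-2.31, SE 0.25). Each of the 4 was called, and the groups did not overlap. For titin the P1 arrays were farther from each other than the cardiac body arrays were.

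**Figure D1:**
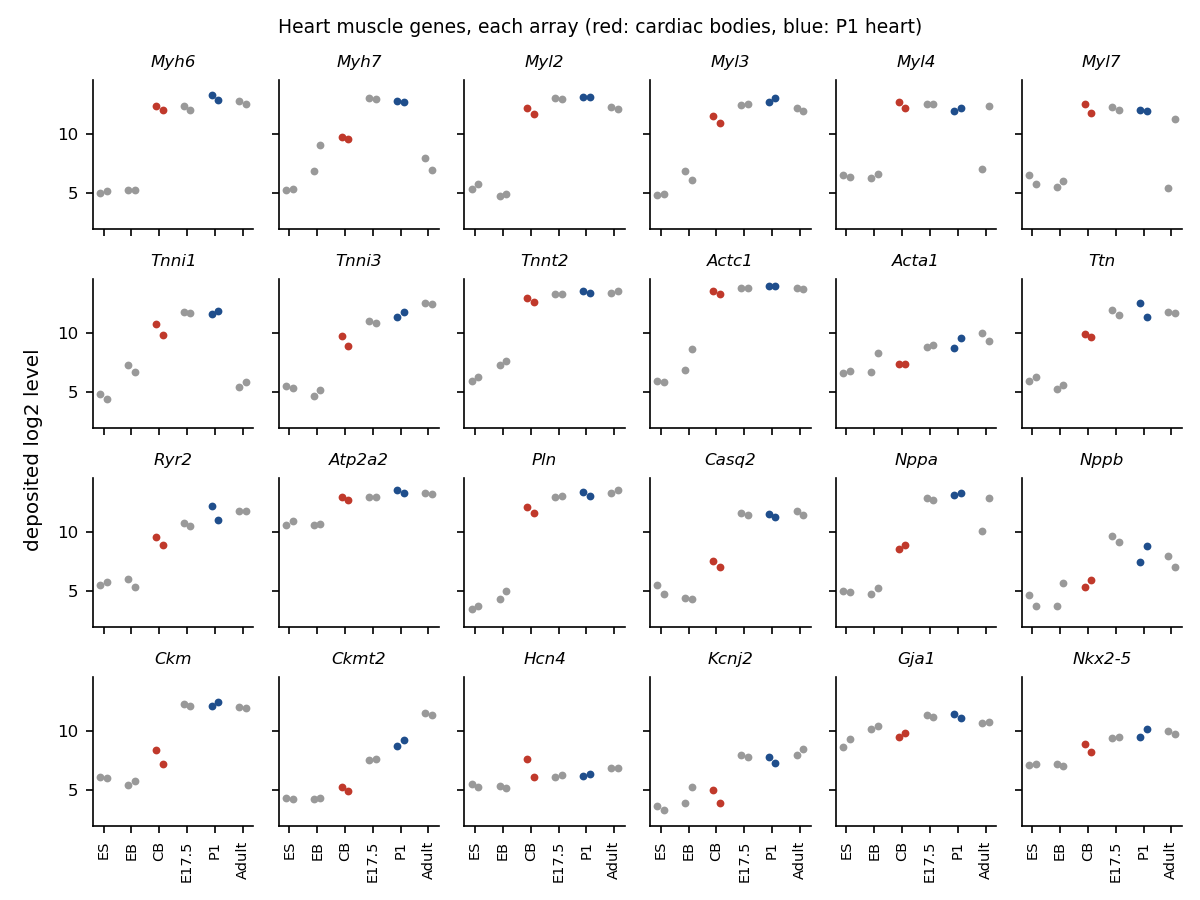
Log2 level (y axes) of 24 cardiac genes in every array of the 6 groups (x axes), 1 point per array. For Myl4 and Myl7 the cardiac body arrays overlap the P1 arrays, whereas for Casq2, Ckm and Nppa they lie more than 3 below.

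The skeletal actin promoter is printed because its serum response element, the CArG box, is a textbook feature of muscle genes. The sequence is the 250 bases upstream of the start site, from RefSeq on GRCm38.p6 (chr8:123894776-123895025, minus strand), and capitals mark the CArG box at -73 to -64.
Acta1: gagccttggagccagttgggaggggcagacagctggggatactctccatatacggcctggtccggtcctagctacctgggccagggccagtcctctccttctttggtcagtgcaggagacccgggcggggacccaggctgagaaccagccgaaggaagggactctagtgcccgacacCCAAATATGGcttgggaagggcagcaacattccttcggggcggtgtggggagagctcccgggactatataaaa
Of the 25 lower sarcomere genes with a promoter in the table, 4 held a CArG box on either strand (Myl3, Acta1, Myom1 and Ldb3), against 1.62% of the 27025 genes with a promoter. A MEF2 site was found in 4 (Ttn, Mybpc3, Myoz2 and Synpo2l), against 3.42% of all. Among the 15614 tested genes with a promoter the shares were 1.45% for the CArG box and 2.84% for the MEF2 site. The motifs were chosen with the data in view, and a match describes letters in a sequence, not a site in use.

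To see which muscle genes were low beyond the general level of muscle RNA, each array's mean of 5 cardiac muscle genes (Myh6, Tnnt2, Actc1, Ttn and Ryr2) was subtracted from every gene. That mean was 11.63 and 11.26 in the cardiac bodies and 13.05 and 12.45 in the P1 hearts, a difference of -1.30, so the median gene stood 1.26 higher on this scale. These relative values are a description with no test. A gene was counted as lower when both cardiac body arrays lay below both P1 arrays and the means differed by at least 1, which held for 275 of 19920 genes (1.38%). In the sarcomere list 4 of 45 genes met that mark, namely Myh7, Myom2, Myoz2 and Des. Without P1 array 1 it was met by 10 sarcomere genes and 456 genes in all, and with Tnnt2 alone as the reference by 13 and 658.

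**Figure D2:**
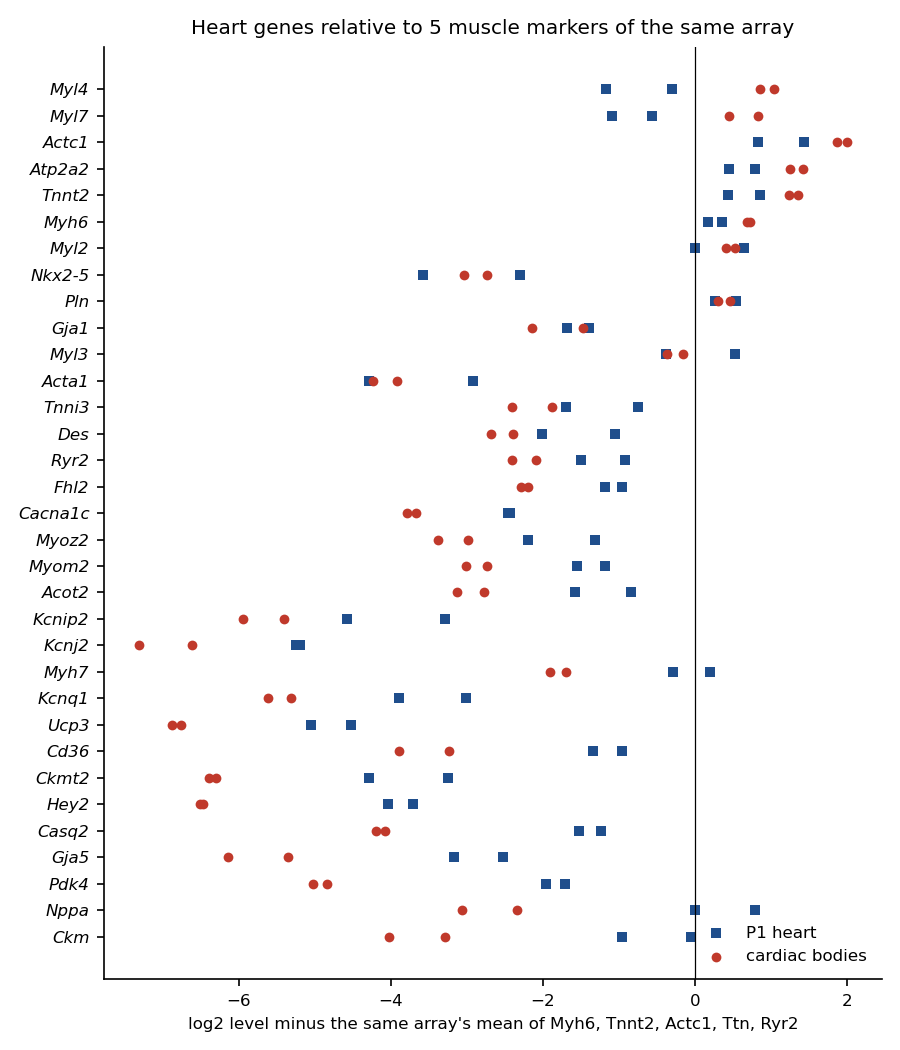
Level of 33 genes relative to the mean of 5 cardiac muscle markers on the same array (x axis, log2 difference), with circles for the 2 cardiac body arrays and squares for the 2 P1 arrays. Myl4, Myl7 and Actc1 lie to the right of their P1 values and Pdk4, Ckm, Nppa and Casq2 to the left.

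Calcium handling genes were unevenly lower. Of 23 measured genes of the list 14 were lower and none higher (median -1.0). The sarcoplasmic reticulum pump Atp2a2 read 12.89 and 12.68 against 13.50 and 13.23 (-0.58), a call that was lost without cardiac body array 2 (-0.48, adjusted p = 0.17) and without P1 array 1 (-0.45, adjusted p = 0.116). Its inhibitor phospholamban (Pln) read 12.09 and 11.56 against 13.31 and 12.98, a fall of 1.32 (SE 0.24). The luminal calcium buffer calsequestrin 2 (Casq2) read 7.55 and 7.07 against 11.52 and 11.21, a fall of 4.06 (SE 0.25, adjusted p = 3.2e-07) or 16.6-fold. Its means were 5.14 and 4.41 in ES cells and embryonic bodies and 11.50 and 11.54 in E17.5 and adult hearts. The release channel Ryr2 (9.54 and 8.86 against 12.13 and 10.95), the L-type channel Cacna1c (7.96 and 7.47 against 10.62 and 9.99) and the calcium sensor S100a1 (7.32 and 5.86 against 9.08 and 9.97) fell by 2.34, 2.58 and 2.93. Casq2, Cacna1c and S100a1 were also lower relative to the muscle markers. Ryr2 met that mark too, but it is 1 of the 5 markers, so it was compared with a mean that contains it. The sodium-calcium exchanger Slc8a1 fell by 1.58 (9.71 and 9.02 against 11.30 and 10.60), and the atrial pump inhibitor sarcolipin (Sln) was not called (5.84 and 4.94 against 6.51 and 6.21).

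Ion channel genes were lower, among them several of the potassium currents that end the action potential. Of 24 measured genes 17 were lower and none higher (median -1.39). Abcc9, the sulfonylurea receptor of KATP channels in muscle and in mural cells, read 5.53 and 4.81 against 10.66 and 9.80, a fall of 5.06 (SE 0.29). Kcnj2 of the inward rectifier current read 5.01 and 3.95 against 7.80 and 7.25 (-3.05), Kcnq1 of the slow delayed rectifier 6.02 and 5.95 against 9.16 and 9.44 (-3.31), its subunit Kcne1 5.71 and 4.45 against 7.69 and 7.99 (-2.76), and Kcnip2 of the transient outward current 5.68 and 5.85 against 8.47 and 9.15 (-3.04). The means of Kcnq1 and Kcnip2 in ES cells were 5.54 and 5.88, close to the cardiac bodies. These 4 potassium current genes did not overlap between the groups and were lower relative to the muscle markers, as were Abcc9 and Gja5. The pacemaker channel Hcn4 stood at 7.62 and 6.15 in cardiac bodies and 6.20 and 6.33 in P1 hearts. It was not called (0.62, SE 0.34), and without cardiac body array 2 it was higher by 1.35 (adjusted p = 0.00102).

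Genes of cell contacts were lower as well. Of 32 measured genes of the intercalated disc and costamere 22 were lower and none higher (median -0.98); the count was 11 without cardiac body array 2 and 13 without P1 array 1. The ventricular gap junction gene Gja1 read 9.49 and 9.79 against 11.37 and 11.06 (-1.57, SE 0.23). The atrial and conduction-system connexin Gja5, which arteries also express, read 6.28 and 5.12 against 9.88 and 9.92 (-4.20, SE 0.51). Nrap, which anchors actin at the disc, read 7.36 and 6.78 against 10.22 and 9.75 (-2.91, SE 0.24). Dystrophin (Dmd) showed how replicates limit this list, with 7.11 and 5.36 in cardiac bodies and 9.69 and 7.47 in P1 hearts. Its fall of 2.35 lost its call without cardiac body array 2 (-1.47, adjusted p = 0.13) and without P1 array 1 (-1.24, adjusted p = 0.0821).

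The natriuretic peptides, secreted by stretched and by fetal heart muscle, were lower. Nppa read 8.56 and 8.92 in cardiac bodies and 13.05 and 13.23 in P1 hearts, a fall of 4.40 (SE 0.58, adjusted p = 8.93e-05) or 21.2-fold. Nppb read 5.36 and 5.95 against 7.44 and 8.84 (-2.49), a call that was lost without cardiac body array 1 (-2.19, adjusted p = 0.0516) and without P1 array 2 (-1.79, adjusted p = 0.0658). Of 20 measured atrial and nodal genes 11 were lower and 1 higher (median -0.94), with 7 lower without cardiac body array 2. The atrial secretory-granule enzyme Pam read 10.39 and 9.70 against 12.69 and 12.30 (-2.45). Of 16 measured ventricular genes 11 were lower and none higher (median -1.36). The ventricular repressor Hey2 read 5.12 and 4.79 against 9.01 and 8.73 (-3.91), and the ventricular homeobox gene Irx4 read 8.15 and 7.24 against 9.35 and 9.82 (-1.89).

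Cardiac transcription factors were mostly lower. The list's mean level was 7.25 and 6.94 in cardiac bodies, 8.02 and 8.20 in P1 hearts and 6.87 and 6.79 in embryonic bodies. Of 31 measured genes 19 were lower and 2 higher (median -1.14). Nkx2-5 read 8.89 and 8.22 against 9.48 and 10.14 (-1.25), Gata4 8.15 and 7.86 against 9.71 and 10.41 (-2.06), Tbx5 7.73 and 6.38 against 8.71 and 8.93 (-1.77), and the SRF coactivator Myocd 7.96 and 7.37 against 9.76 and 9.70 (-2.06). Each of these 4 was called and did not overlap. The 2 genes that were higher belong to early development: Isl1, a marker of cardiac progenitors, at 6.13 and 6.14 against 4.99 and 4.84 (1.22, SE 0.27), and Foxh1, a partner of Nodal signalling, at 7.02 and 7.23 against 4.65 and 5.11 (2.25, SE 0.29). Isl1 had a mean of 8.21 in embryonic bodies and 4.97 in ES cells, and Foxh1 a mean of 7.11 in each. Receptors for hormones and transmitters were lower in 12 of 15 measured genes and higher in none (median -1.53). The muscarinic receptor Chrm2 read 6.16 and 5.15 against 9.29 and 7.91 (-2.94), the angiotensin receptor Agtr1a 6.01 and 5.35 against 8.23 and 8.49 (-2.68), and the thyroid hormone receptor Thra 7.99 and 7.40 against 10.03 and 10.23 (-2.44).

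Genes that take up and burn fatty acids were lower. All 33 measured genes of fatty acid oxidation were called lower in cardiac bodies (median -1.97), against 15.6% of all genes. The fatty acid transporter Cd36 read 8.4 and 7.37 against 12.09 and 11.11 (-3.72), and the lipid chaperone Fabp4, which endothelium and fat cells express, read 4.35 and 3.76 against 10.25 and 10.06, a fall of 6.10 (SE 0.23, adjusted p = 7.58e-09). Pdk4, which blocks entry of pyruvate into the citrate cycle, read 6.6 and 6.42 against 11.09 and 10.74 (-4.40), and the mitochondrial thioesterase Acot2 read 8.50 and 8.49 against 11.48 and 11.60 (-3.04). Ucp3, a mitochondrial carrier, read 4.75 and 4.50 against 7.99 and 7.92 (-3.33), with E17.5 hearts at a mean of 4.61. Relative to the muscle markers 11 of the 33 stayed lower, among them the 5 just named, Fabp3, Acadvl, Acaa2 and the coactivator Ppargc1a; with Tnnt2 alone as the reference it was 20.

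Of 33 measured genes of the citrate cycle and respiratory chain 30 were lower (median -0.93), or 18 without cardiac body array 2, and none was lower relative to the 5 muscle markers, with 4 lower when Tnnt2 alone was the reference, 2 without cardiac body array 1 and 3 without P1 array 1. The heart and muscle isoforms differed most: Cox8b read 9.16 and 8.02 against 10.45 and 11.43 (-2.35), Cox6a2 9.62 and 8.90 against 11.07 and 11.70 (-2.12) and Cox7a1 9.54 and 8.58 against 10.50 and 11.49 (-1.94). In the creatine kinase list 8 of 14 genes were lower and 1 higher (median -0.86). The muscle kinase Ckm read 8.35 and 7.24 against 12.09 and 12.40, a fall of 4.45 (SE 0.29, 21.9-fold), and the mitochondrial Ckmt2 read 5.24 and 4.96 against 8.76 and 9.20 (-3.87, SE 0.19). Those were the 2 genes of the list that were also lower relative to the markers. Myoglobin (Mb), the oxygen store of heart muscle, read 10.94 and 10.47 against 12.74 and 12.80 (-2.07).

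Glycolysis and lactate genes went both ways, with 6 higher and 8 lower of 24 (median -0.20), or 5 lower without cardiac body array 2. The glucose transporter Slc2a3, typical of ES cells and neurons, read 11.32 and 12.04 against 6.29 and 6.61, higher by 5.23 (SE 0.41, 37.4-fold). Slc2a1, the transporter of the fetal heart, read 10.83 and 10.90 against 8.28 and 9.03 (2.21), and the insulin-responsive Slc2a4 read 8.31 and 7.79 against 8.93 and 9.34 (-1.09). The general phosphoglycerate mutase Pgam1 read 10.89 and 10.73 against 8.60 and 9.14 (1.94). The lactate exporter Slc16a3 read 9.30 and 8.83 against 7.40 and 7.63 (1.55). Slc2a3 had means of 11.75 and 12.46 in ES cells and embryonic bodies and of 7.54 and 5.98 in E17.5 and adult hearts.

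**Figure D3:**
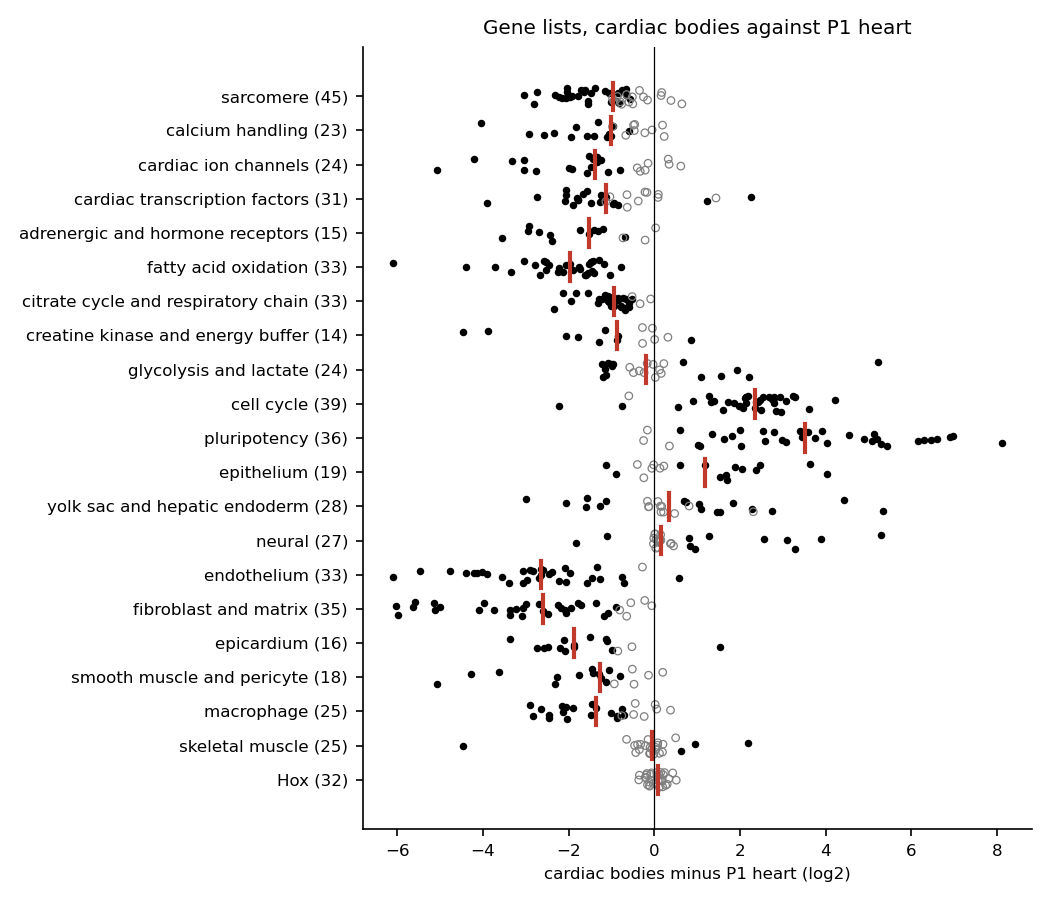
Difference between cardiac bodies and P1 hearts (x axis, log2) for every measured gene of 21 lists, with filled points for genes called at an adjusted p under 0.05, open grey points for the rest and a red bar at each median. The lists for pluripotency and cell cycle lie right of 0 (medians 3.51 and 2.34) and those for endothelium, fibroblast and fatty acid oxidation left of it (-2.65, -2.60 and -1.97).

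Proliferation genes were high in the cardiac bodies. Of 39 measured cell cycle genes 36 were higher and 2 lower (median 2.34), against 16.8% of all genes higher. Bub1, a spindle checkpoint kinase, read 8.77 and 9.0 in cardiac bodies and 5.40 and 3.96 in P1 hearts (4.21, SE 0.35). Mcm5, a subunit of the replicative helicase, read 10.09 and 10.32 against 7.17 and 7.10 (3.07, SE 0.17), and the mitotic kinesin Kif20a read 8.86 and 9.06 against 5.91 and 5.55 (3.23, SE 0.18). Topoisomerase Top2a read 9.51 and 9.81 against 7.22 and 5.55 (3.27), with the P1 arrays apart from each other but both below the cardiac bodies. The 2 lower genes were D-type cyclins. Ccnd2 read 8.56 and 8.46 against 10.71 and 10.74 (-2.22), and Ccnd1 read 8.85 and 8.12 against 9.01 and 9.47 (-0.75), a call that was lost without cardiac body array 2 (-0.39, adjusted p = 0.405) and without P1 array 2 (-0.52, adjusted p = 0.243). Averaged over the list, the level was 8.74 and 8.82 in the cardiac bodies, 6.82 and 6.58 in the P1 hearts and 8.61 and 8.49 in the E17.5 hearts.

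The upstream sequences of Bub1 and Mcm5 show the letters that many genes of this list have in common. They are the 250 bases before the start site, from RefSeq on GRCm38.p6: Bub1 at chr2:127831860-127832109 (minus strand) and Mcm5 at chr8:75109259-75109508 (plus strand). Capitals mark the pentamer CCAAT or its reverse complement, at -68 to -64 and -42 to -38 for Bub1 and at -77 to -73 and -22 to -18 for Mcm5, and an E2F site at -149 to -142 of Mcm5.
Bub1: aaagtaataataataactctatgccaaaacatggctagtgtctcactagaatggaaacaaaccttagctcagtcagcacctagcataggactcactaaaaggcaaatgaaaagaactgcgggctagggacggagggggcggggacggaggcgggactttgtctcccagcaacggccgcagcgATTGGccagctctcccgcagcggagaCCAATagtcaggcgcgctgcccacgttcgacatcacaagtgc
Mcm5: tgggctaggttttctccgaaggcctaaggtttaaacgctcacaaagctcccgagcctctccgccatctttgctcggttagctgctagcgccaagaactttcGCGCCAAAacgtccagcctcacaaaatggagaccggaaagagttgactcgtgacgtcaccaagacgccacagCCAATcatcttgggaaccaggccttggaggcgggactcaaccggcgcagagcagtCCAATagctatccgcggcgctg
CCAAT was found on either strand in 22 of the 29 higher cell cycle genes with a promoter in the table, against 37.5% of the 27025 genes with a promoter. The E2F sites TTTCCCGC and TTTGGCGC were found in 4 of 29 (Mcm5, Mcm6, Mcm7 and Cdc6), against 1.51% of all, and TTTGAA in 9 of 29, against 18.3%. Among the 15614 tested genes with a promoter the shares were 38.8% for CCAAT, 2.13% for the E2F sites and 15.7% for TTTGAA. The 3 motifs were chosen with the data in view, and none of the printed matches overlaps another.

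Genes of undifferentiated cells were higher, with the largest median difference of the lists. Of 36 measured pluripotency genes 33 were higher in cardiac bodies and none lower (median 3.51). Pou5f1 (Oct4), the central transcription factor of this state, read 11.03 and 11.11 in cardiac bodies and 4.46 and 4.50 in P1 hearts, higher by 6.59 (SE 0.20, adjusted p = 3.38e-09). Nanog read 10.90 and 11.03 against 5.75 and 5.78 (5.20, SE 0.17), and Sox2 9.51 and 10.34 against 4.06 and 5.24 (5.28, SE 0.38). The ES cell gene Dppa5a read 12.68 and 13.02 against 5.30 and 4.19, a difference of 8.10 (SE 0.29). In ES cells the means of Pou5f1, Nanog and Dppa5a were 11.83, 11.77 and 12.92, and in embryonic bodies 8.49, 8.52 and 10.39, so the day 14 levels lay between those of the embryonic bodies and the ES cells. Tdgf1 (Cripto, a Nodal co-receptor), the orphan receptor Nr0b1 (Dax1) and the methyltransferase cofactor Dnmt3l were higher by 6.98, 6.90 and 6.46. Several genes with little known role were of the same size, such as the zinc finger genes Zfp980 (6.43), Zfp640 (6.04) and Zfp600 (5.53) and the non-coding Lncenc1 (5.89).

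The upstream sequence of Nanog is printed because the heptamer TTTGCAT, part of the octamer that POU factors such as Oct4 bind, lies within it. It is the 250 bases before the first of 2 listed starts, from RefSeq on GRCm38.p6 (chr6:122707239-122707488, plus strand), with the heptamer in capitals at -75 to -69.
Nanog: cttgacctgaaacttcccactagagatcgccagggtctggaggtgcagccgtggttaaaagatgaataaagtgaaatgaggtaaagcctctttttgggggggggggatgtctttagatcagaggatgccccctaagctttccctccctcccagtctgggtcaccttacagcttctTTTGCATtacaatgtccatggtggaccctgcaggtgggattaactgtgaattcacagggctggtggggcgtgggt
On either strand TTTGCAT was present in 3 of 23 higher pluripotency genes with a promoter (Nanog, Sox2 and Zfp42), against 4.65% of the 27025 genes. The octamer ATTTGCAT was present in 1 of the 23 (Zfp42), against 1.81%, and the Nanog match is the heptamer only. Among the 15614 tested genes with a promoter the shares were 4.4% for TTTGCAT and 1.79% for ATTTGCAT.

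Some markers of lineages other than heart were also higher in the cardiac bodies. Of 28 measured genes of yolk sac and hepatic endoderm 11 were higher and 6 lower (median 0.34), and 7 were higher when only genes at or above the median level in a group were tested. Among the higher ones were the secreted products alpha-fetoprotein (Afp) at 10.08 and 9.97 against 4.44 and 4.96 (5.33, SE 0.24), albumin (Alb) at 7.94 and 7.92 against 3.63 and 3.37 (4.43, SE 0.17), and fibrinogen beta (Fgb) at 7.62 and 7.42 against 4.74 and 4.82 (2.74). The 6 lower ones (Sox17, Gata4, Gata6, Sox7, Cxcr4 and Thbd) are genes that heart muscle or endothelium also uses, and Gata6 lost its call without cardiac body array 2 (-0.80, adjusted p = 0.121). Neither ES cells nor embryonic bodies reached the cardiac bodies for Afp (means 4.88 and 5.08) or Alb (3.65 and 3.46).

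Of 27 measured neural genes 9 were higher and 2 lower (median 0.15). The list's mean level was 5.93 and 5.88 in cardiac bodies and 5.06 and 5.19 in P1 hearts. In ES cells it was 5.84 and 5.89, close to the cardiac bodies. Otx2, a forebrain and epiblast factor, read 8.33 and 7.69 against 4.70 and 4.74 (3.29), Zic2 read 7.59 and 7.35 against 4.08 and 4.65 (3.10), and the neuronal filament gene Nefl read 7.11 and 6.43 against 4.37 and 4.05 (2.56). Epithelial genes were higher in 11 of 19 and lower in 2 (median 1.19). E-cadherin (Cdh1), which ES cells share with epithelium, read 9.34 and 9.38 against 5.08 and 5.57 (4.04, SE 0.25), Epcam read 7.68 and 8.66 against 5.10 and 3.98 (3.63), and claudin 4 (Cldn4) read 7.92 and 8.48 against 5.84 and 5.63 (2.47). For these epithelial genes the ES cell means were higher still (10.04, 9.23 and 8.80).

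Most markers of endothelium, fibroblasts and epicardium were lower. Of 33 measured endothelial genes 31 were lower and 1 higher (median -2.65), and the list's mean level was 5.70 and 5.74 in cardiac bodies against 8.36 and 8.50 in P1 hearts and 5.77 and 5.79 in ES cells. VE-cadherin (Cdh5) read 4.90 and 4.71 against 9.35 and 9.81 (-4.77, SE 0.28), endomucin (Emcn) 3.47 and 3.44 against 9.20 and 8.64 (-5.46, SE 0.61), and the angiopoietin co-receptor Tie1 5.34 and 5.46 against 9.43 and 9.77 (-4.20, SE 0.24). Cdh5, Emcn and Tie1 had means of 7.34, 6.58 and 7.33 in the embryonic bodies of day 7. Pecam1, which ES cells also express (mean 7.90), differed less, at 7.53 and 8.30 against 9.28 and 9.22 (-1.34).

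Fibroblast and matrix genes were lower in 30 of 35 and higher in none (median -2.60). The list's mean level was 5.98 and 5.96 in cardiac bodies and 8.83 and 8.72 in P1 hearts. Collagen Col1a1 read 6.59 and 6.36 against 11.36 and 11.60 (-5.0), the proteoglycans decorin (Dcn) and biglycan (Bgn) 4.55 and 4.63 against 11.01 and 10.12 (-5.98) and 4.29 and 4.63 against 10.23 and 10.72 (-6.02), and elastin (Eln) 6.15 and 6.12 against 11.84 and 11.70 (-5.64). The fibroblast and epicardial factor Tcf21 read 4.97 and 4.42 against 7.79 and 8.37 (-3.38). Periostin (Postn), a matrix protein of valves and activated fibroblasts, read 5.12 and 5.08 against 11.22 and 9.27 (-5.14, SE 0.61).

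Epicardial genes were lower in 13 of 16 and higher in 1 (median -1.87), the exception being the keratin Krt8 (8.17 and 8.42 against 6.76 and 6.75), which many epithelia express. Mesothelin (Msln) read 5.21 in each cardiac body array against 7.50 and 8.08 (-2.58), and the retinoic acid enzyme Aldh1a2 read 5.15 and 5.55 against 7.88 and 7.77 (-2.47). Smooth muscle and pericyte genes were lower in 13 of 18 (median -1.26), led by the pericyte genes Rgs5 (4.25 and 5.20 against 9.54 and 8.46, -4.28) and Pdgfrb (5.45 and 5.55 against 8.93 and 9.32, -3.63). Macrophage genes were lower in 18 of 25 (median -1.35), for example the complement gene C1qc at 4.95 and 4.22 against 7.18 and 7.79 (-2.90). The mean level of the macrophage list was 4.92 and 4.77 in cardiac bodies, 6.11 and 6.26 in P1 hearts and 5.01 and 5.08 in ES cells.

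**Figure D4:**
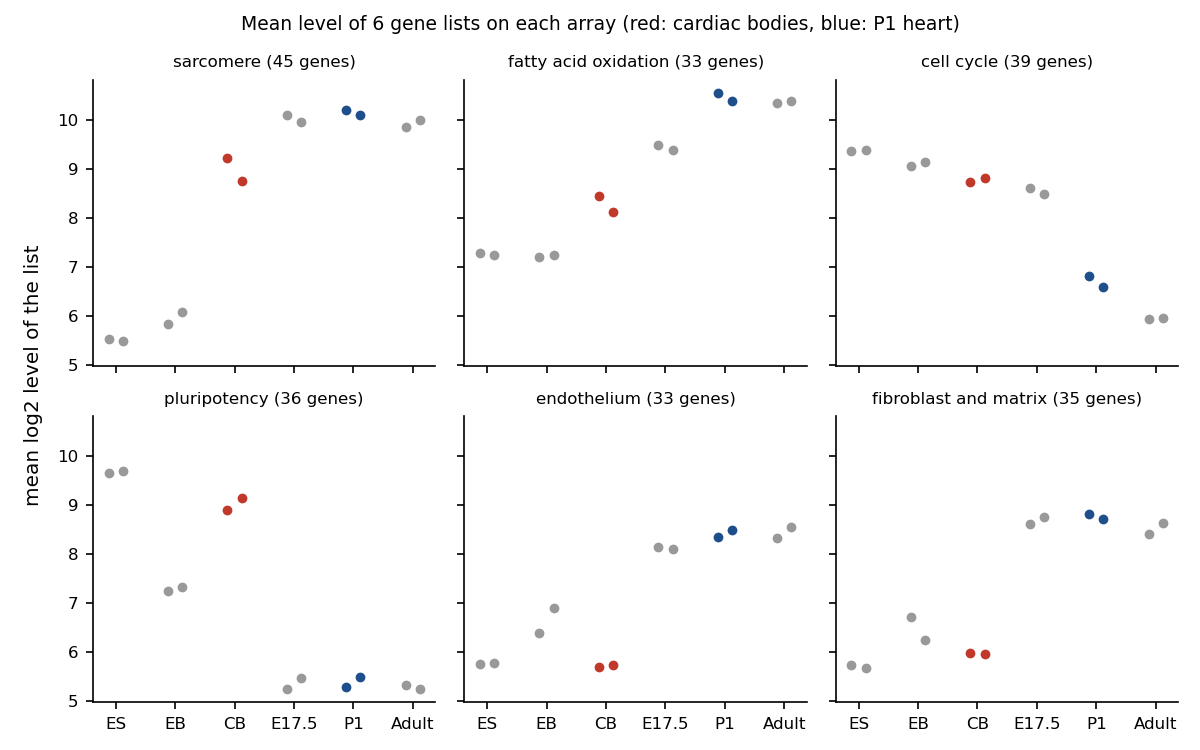
Mean log2 level of 6 gene lists (y axis) on each array of the 6 groups (x axis), 1 point per array. The pluripotency list stands at 8.91 and 9.14 in cardiac bodies against 5.30 and 5.50 in P1 hearts, and the endothelial list at 5.70 and 5.74 against 8.36 and 8.50.

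The part that these other cells and the undifferentiated cells have in the lower muscle values was not tested. The muscle marker mean, the pluripotency list and the endothelial list all separated the 2 cardiac body arrays from the 2 P1 arrays, so their contributions cannot be told apart in this design.

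The remaining lists were smaller or mixed. Over all genes tested 16.8% were higher and 15.6% lower, and counts near those shares do not set a list apart. Adipocyte genes were lower in 6 of 14 and higher in none (median -0.30), led by Fabp4, and genes of antigen presentation and interferon response were lower in 8 of 25 and higher in none (median -0.45), or 5 lower without cardiac body array 2. Lymphocyte and granulocyte genes were lower in 4 of 19 (median -0.32), erythroid genes higher in 2 and lower in 1 of 14 (-0.15), skeletal muscle genes higher in 3 and lower in 1 of 25 (-0.063), nerve and glia genes of the heart wall higher in 2 of 12 (0.13), and circadian genes higher in 2 and lower in 4 of 15 (-0.28). No Hox gene of 32 was called in either direction (median 0.074). Imprinted and fetal growth genes were higher in 7 and lower in 6 of 21 (median -0.005), with Peg10, a retrotransposon-derived imprinted gene, at 9.14 and 9.65 against 6.34 and 6.32 (3.07) and the growth-arrest factor Plagl1 at 7.54 and 7.84 against 10.68 and 10.06 (-2.68). Igf2bp1, an RNA-binding protein of fetal tissue, read 10.33 and 10.60 against 6.38 and 6.94 (3.80). Immediate early genes were higher in 2 and lower in 7 of 24 (median -0.22), or 4 lower without cardiac body array 2 and 3 without P1 array 2.

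Stress genes differed in both directions. Of 24 measured genes of hypoxia and stress 9 were higher and 5 lower (median 0.40), or 5 higher without cardiac body array 2. Among the higher ones were asparagine synthetase (Asns) at 11.11 and 11.38 against 6.34 and 6.43 (4.86, SE 0.22, 29-fold), the leucine sensor Sesn2 at 8.46 and 8.93 against 5.46 and 6.09 (2.92), and heme oxygenase Hmox1 at 8.98 and 9.90 against 6.55 and 7.17 (2.57). The 5 lower ones were Hif3a, Ndrg1, Txnip, Vegfa and Egln3, with the vessel growth factor Vegfa at 7.77 and 7.53 against 9.56 and 9.37 (-1.82) and the oxygen sensor Egln3 at 6.19 and 6.02 against 7.41 and 8.29 (-1.75). The call of Ndrg1 was lost without cardiac body array 1 (-1.11, adjusted p = 0.0749), without cardiac body array 2 (-1.14, adjusted p = 0.0804) and without P1 array 2 (-0.85, adjusted p = 0.13). In ES cells the mean of Asns was 11.58, close to that in the cardiac bodies.

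Y-linked genes separated culture from heart. Eif2s3y read 3.10 and 3.06 in cardiac bodies and 8.44 and 6.76 in P1 hearts, Uty 3.41 and 3.13 against 8.14 and 6.30, and Kdm5d 3.69 in each against 7.03 and 5.85. Their means in ES cells were 3.30, 3.17 and 3.59, near those of the cardiac bodies, and in E17.5 and adult hearts they were above 6. The X-inactivation transcript Xist read 3.88 and 4.31 against 3.56 and 3.31, and its mean was at most 4.07 in the other groups. A difference in sex, line or strain between culture and hearts therefore cannot be told apart from the difference between culture and heart.

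MicroRNA genes are covered by rows of the array that report signal from their loci; the mature microRNA was not measured. Of 296 such rows 55 (18.6%, against 32.4% of all genes) were called, 21 higher and 34 lower in cardiac bodies (35 in all without cardiac body array 2), and 49 of the 55 matched a mature sequence in the RefSeq table. The mature sequences below are those of the loci named in the text, on GRCm38.p6, with the seed (bases 2 to 8), which directs target choice, in capitals. The first group belongs to the related clusters of miR-17 and miR-106a and to the miR-302 cluster of pluripotent cells, and its rows were higher.
miR-17-5p: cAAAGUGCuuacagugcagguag
miR-20a-5p: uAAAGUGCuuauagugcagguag
miR-106a-5p: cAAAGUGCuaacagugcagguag
miR-20b-5p: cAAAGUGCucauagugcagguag
miR-18a-5p: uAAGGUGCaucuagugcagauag
miR-19a-3p: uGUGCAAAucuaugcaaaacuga
miR-19b-3p: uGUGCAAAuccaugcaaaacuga
miR-363-3p: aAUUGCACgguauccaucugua
miR-302c-3p: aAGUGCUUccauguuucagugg
miR-302d-3p: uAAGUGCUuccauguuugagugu
Of 6 measured loci whose listed mature sequence has the seed AAAGUGC, 4 were higher, by 1.04 (Mir17), 1.60 (Mir20a), 1.88 (Mir106a) and 1.07 (Mir20b, or 0.67 with adjusted p = 0.123 without cardiac body array 2). The other 2, Mir93 and Mir106b, were not called (0.19 and 0.055). Mir18, with the seed AAGGUGC, was higher by 1.99. Mir19a was higher by 2.24 and the 2 loci with miR-19b, which has the same seed GUGCAAA, by 2.09 and 1.14. Mir363 was higher by 3.24, and the Mir302c and Mir302d rows by 1.71 and 1.15. Mir302c read 4.83 and 3.40 in cardiac bodies and Mir302d 4.02 and 3.38, below the median gene-level signal of those arrays. In P1 hearts they read 2.45 and 2.36, and 2.68 and 2.42. In ES cells Mir302c read 2.44 and 2.47 and Mir302d 2.87 and 2.70, near the P1 hearts. Embryonic bodies read 3.97 and 4.23 for Mir302c and 3.44 and 3.61 for Mir302d.

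The second group of microRNA loci was lower in cardiac bodies than in P1 hearts, except let-7f, which is printed because it shares the seed of let-7c.
miR-208a-3p: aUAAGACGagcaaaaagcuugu
miR-126a-3p: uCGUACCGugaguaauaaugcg
let-7c-5p: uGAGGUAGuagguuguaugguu
let-7f-5p: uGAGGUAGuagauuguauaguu
miR-99a-5p: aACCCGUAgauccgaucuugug
miR-30e-5p: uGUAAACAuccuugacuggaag
Mir208a, which lies in an intron of Myh6, read 6.41 and 5.99 in cardiac bodies and 10.08 and 8.38 in P1 hearts (-3.04, SE 0.44). In E17.5 hearts Mir208a read 6.77 and 5.77, and in adult hearts 6.36 and 6.0, near the cardiac bodies. Mir126a, which lies in the endothelial gene Egfl7, read 3.02 and 2.51 against 5.26 and 5.09 (-2.41, SE 0.38). The neighbours Mirlet7c-1 and Mir99a, 1 cluster of differentiated cells, fell by 2.29 and 2.12, with P1 arrays at 5.94 and 3.91 for Mirlet7c-1 and 6.91 and 4.95 for Mir99a. Of 9 measured loci with the let-7 seed GAGGUAG in the table, Mirlet7c-1 was lower, 7 were not called and Mirlet7f-1 was higher by 1.10, a call that was lost without P1 array 2 (0.56, adjusted p = 0.0534). Mirlet7a-2, for which only the 3p sequence is listed, is not among the 9 and was called lower, by 0.92. Mir30e fell by 1.77. It read 4.82 and 4.92 in cardiac bodies and 7.02 and 6.25 in P1 hearts. In E17.5 hearts Mir30e read 5.72 and 5.88, and in adult hearts 5.25 and 5.59.

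Splicing regulators moved in both directions. Of 43 measured splicing regulators 18 were higher and 10 lower (median 0.58). The higher count was 11 without cardiac body array 1, 8 without cardiac body array 2 and 11 without P1 array 2, and the lower count 6 without cardiac body array 2. Rbm20, the titin splicing factor, read 8.45 and 7.88 against 10.41 and 10.10 (-2.09, SE 0.21), Rbm24 read 9.88 and 8.98 against 11.07 and 11.10 (-1.65), and Mbnl1 read 7.63 and 7.23 against 9.67 and 8.56 (-1.69). The epithelial splicing factor Esrp1 read 6.6 and 6.50 against 3.99 and 4.34 (2.38, SE 0.18), and Ptbp1, which represses muscle and neural exons, read 10.38 and 10.66 against 8.85 and 9.40 (1.39, SE 0.20). Between the P1 arrays, 8 of the 43 were over 1 higher in array 1 and none in array 2.

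Splicing was read from the index, the log2 level of a probe set (usually 1 exon or part of it) minus that of its gene. Of 92294 probe sets tested 820 (0.888%) in 642 genes were called with a difference of at least 1: 281 (0.304%) higher and 539 (0.584%) lower in cardiac bodies. This excess of lower over higher calls was absent in the fit without P1 array 1. The calls rest on few arrays: the total was 118 without cardiac body array 1, 344 without cardiac body array 2, 597 without P1 array 1 and 85 without P1 array 2, and 16 in a fit of the 4 arrays alone. In genes with 1 transcript cluster 723 of their probe sets (0.848%) were called. For 497 of the 820 the gene itself differed by more than 1, and for 323 by at most 1. The most calls in 1 gene were in Col1a2, with 7 higher and 4 lower, and in Hk1, with 10 lower. Col1a2 itself differed by -5.13, and Eln, with 6 higher calls and 1 lower, by -5.64. The called probe sets of Hk1 differed by -2.01 to -1.38, whereas its gene-level value differed by 0.12. Whether calls of these kinds reflect splicing was not tested. In 361 of the 539 lower calls the index of all 6 cultured arrays, ES cells and embryonic bodies included, lay below that of all 6 hearts. In 131 of the 281 higher calls it lay above. The gap was at least 1 in 118 of the lower and 24 of the higher calls. The calls were picked for a difference between cardiac bodies and P1 hearts, which in part sets this order. The share over all probe sets tested is not given here. No file used here gives the position of a probe set within its gene, and a difference in genome sequence between ES line and mice under a probe cannot be told apart from a difference in splicing.

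In Myh6 1 probe set stood far from its neighbours. Probe set 10419921 read 6.08 and 5.02 in cardiac bodies and 13.30 and 12.91 in P1 hearts, an index lower by 6.70 (SE 0.26, adjusted p = 0.00011), although the gene differed by 0.86. All 6 hearts lay between 11.76 and 13.30. The probe sets numbered just before and after it read 12.37 and 11.74 and 13.30 and 12.79 in cardiac bodies. Of the 26 tested probe sets of Myh6 a second, 10419931, the last in number, was also called (8.84 in each cardiac body array against 11.83 and 11.53).

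Dad1, a subunit of the oligosaccharyltransferase, and Gpsm1, a G-protein regulator chosen after its values were seen, gave 2 further shapes. In Dad1, probe set 10419739 read 5.21 and 5.70 against 10.97 and 11.30 (index -5.30), with the cultured arrays at 5.21 to 7.2 and the hearts at 10.63 to 11.38, while the other 3 tested probe sets had means of 11.1 to 11.7 in cardiac bodies and 11.36 to 12.04 in P1 hearts. In Gpsm1 the 4 called probe sets of 17 tested all lay among the last 5 of the 19 by number. They had means of 5.34 to 6.54 against 8.86 to 9.77, with index differences from -3.25 to -1.81, whereas the first of the 19 read 11.33 and 11.30 against 11.23 and 11.19.

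**Figure D5:**
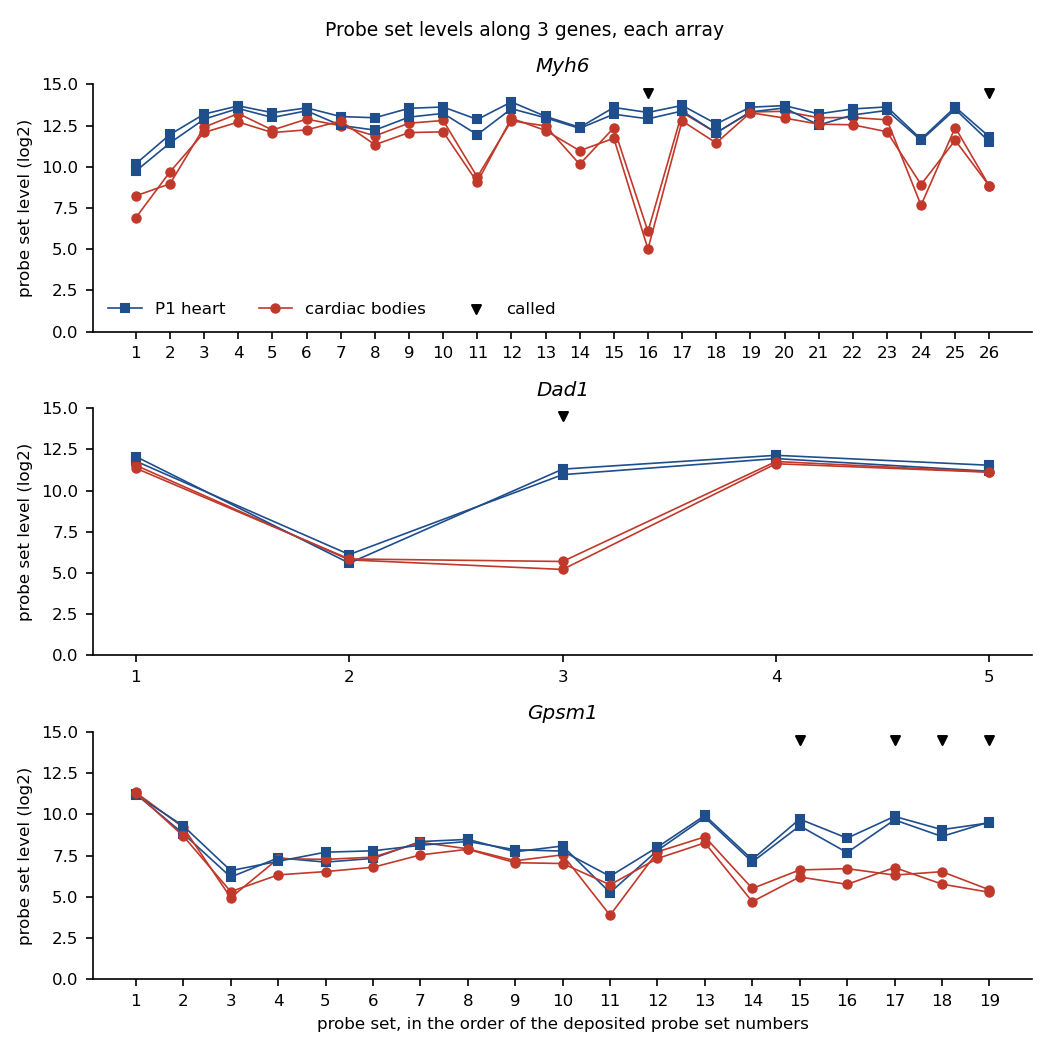
Log2 level (y axis) of each probe set in order of its number (x axis) for Myh6, Dad1 and Gpsm1 in the 2 cardiac body and 2 P1 arrays, with triangles at called probe sets. In Myh6 and Dad1 1 probe set lies more than 5 lower in cardiac bodies than in P1 hearts among neighbours that do not, and in Gpsm1 the called ones lie at the end of the order.

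Among the 12 largest differences in index, all lower in cardiac bodies, were also probe sets of Inpp5d (-7.11), Eif2s2 (-5.80, a gene with several transcript clusters), Tmem87a (-5.64), Agrn (-5.33), Abca3 (-5.09), Fubp1 (-5.08) and Lrrfip2 (-4.89). The genes themselves differed by 1.83, 2.38, 1.25, -1.07, -0.59, 0.96 and -1.25 in that order. Where the gene was higher, part of the index difference is that rise. Genes whose exons are known to change in the developing heart had 33 of 2666 tested probe sets called (1.24%, against 0.888% of all tested), in 20 of 96 genes, 14 higher and 19 lower. The called ones include Ppfibp1, a scaffold protein (-4.74, from 4.42 and 5.14 against 10.48 and 9.15), and the disc protein Lmo7 (-4.73, from 2.14 and 4.62 against 11.06 and 10.01). They also include Asph, which also encodes junctin (-4.60, from 5.75 and 4.90 against 11.05 and 9.74). The actin binder Ablim1 was called too (-3.97, from 5.72 and 3.22 against 11.46 and 10.98). For each of these probe sets the index was lower in all 6 cultured arrays, ES cells and embryonic bodies included, than in all 6 hearts. At gene level 57 of 109 measured genes of that list were lower and 9 higher (median -0.68); the higher count was 5 without cardiac body array 1 and 14 without P1 array 1. Of the 21 probe sets named by rule, 7 stayed called in each fit that left out 1 array, those of Inpp5d, Dad1, Myh6, Eif2s2, Fubp1, Ppfibp1 and Lrrfip2.

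The mitochondrial phosphate carrier Slc25a3, whose 2 alternative exons are a textbook case of heart splicing, was looked at after its values were seen. Probe set 10371884 read 12.07 and 12.23 in cardiac bodies, 11.69 and 11.73 in P1 hearts and 10.96 and 11.06 in adult hearts, and its index was higher by 1.32 (adjusted p = 0.0187), a call that was lost in each fit without 1 of the 4 arrays. Its neighbour 10371885 read 11.98 and 11.94 against 13.16 and 13.21, with ES cells at 9.44 and 9.36, and its index was not called (-0.35). On this probe set the cardiac bodies lay more than 2 above the ES cells and more than 1 below the P1 hearts.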

How the data were processed

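RNA of 12 samples was measured on an Affymetrix mouse gene array, and each sample was deposited at gene level (35556 transcript clusters) and exon level (241576 probe sets). The deposited values are log2 signals that the authors computed by RMA using Affymetrix Power Tools, per the submitters' processing notes. Their versions, and any batch, are not stated there. RMA evens the arrays' distributions, so a shift common to all genes cannot be seen. The number of arrays limits the precision. Gene symbols came from the platform annotation (21789 transcript clusters with 1 symbol, 1621 with several, 12146 with none); rows with several or none were left out, and for 1015 genes with several transcript clusters the brightest was used, giving 19920 genes.

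For gene-level values a linear model of 6 group means over 12 arrays (limma 3.58.1, R 4.3.3, lmFit then eBayes, 6 residual degrees of freedom) gave the contrast of cardiac bodies minus P1 hearts. Genes with a Benjamini-Hochberg adjusted p under 0.05 were called. The splicing index was fitted likewise (called also at a difference of at least 1) for genes at or above percentile 50 in both groups with at least 4 probe sets, and probe sets at or above it in at least 1 group; 1847 probe sets identical to their gene were left out. Scripts were tested on simulated data. Named genes were the 15 largest rises and falls, up to 5 called genes of each list in each direction, and a fixed set, of which 43 were measured. Probe sets named were the 12 largest and up to 10 of the spliced heart genes. The members and all gene lists were chosen with earlier results of these data known. Tables and figures used Python 3.11.15. Promoters and microRNAs came from RefSeq tables.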

Additional observations from a re-analysis of the deposited data

How the results depend on the processing

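Of 229 named genes that were called, 191 were called under every alternative that gave a value, and of 22 called probe sets 3 were. At gene level, leaving out 1 array gave 4260 to 6601 calls in all and 1973 to 3123 lower, and the replicate number as a block gave 3281 higher and 3008 lower. The numbers do not pair the samples (the deviations of same-numbered cardiac body and P1 arrays correlated at r = -0.176); the crossed pairing, added after seeing the data, gave 6394 calls at gene level and 585 at exon level, and the replicate block 195 higher and 382 lower at exon level. The exon-level calls moved most: 16 in all, 5 higher and 11 lower with the 4 arrays alone; 1297 and 510 higher with no filter on level; 406, 105 higher and 301 lower with the filter at percentile 70; 190, 39 higher and 151 lower in genes that differed by at most 1. Leaving out 1 array gave 85 to 597 calls, 28 to 313 higher and 52 to 284 lower. Counting only genes with 1 transcript cluster, also added later, left 723. With the 4 arrays alone splicing regulators numbered 10 higher and 6 lower, lower immediate early genes 4 and higher spliced heart genes 5, which was also 5 with the median of exon-level probe sets. Yolk sac genes higher were 7 under the level filter. Leaving out 1 array gave 7 to 9 lower atrial, 18 to 30 respiratory chain, 5 to 9 glycolysis, 5 to 8 antigen presentation, 6 to 10 splicing regulator, 11 to 27 intercalated disc and 3 to 7 immediate early genes, and 8 to 19 higher splicing regulators, 5 to 11 stress and 5 to 14 spliced heart genes. Relative to Tnnt2 alone 658 genes, 13 sarcomere, 20 fatty acid, 4 respiratory chain, 4 creatine kinase and 6 intercalated disc genes were lower, and leaving out 1 array gave 212 to 456, 3 to 10 sarcomere, 0 to 3 respiratory chain and 1 to 4 intercalated disc genes. Turned values were Nipbl without P1 replicate 2 (-0.82, against 0.39 with both and 1.61 without P1 replicate 1) and, with the median of exon-level probe sets, Pkm (-0.081) and Tpm3 (-0.19); the cause was not tested. A group left with 1 array was assumed to vary like the others.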
